A study of Owenia fusiformis with 9 samples.

Results

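The steady transcripts of adult *Owenia fusiformis*, an oweniid annelid, are the 200 transcripts whose level varied least over 9 libraries from adult tissues and body regions. They were chosen from the deposited expression matrix, in which the read count of each transcript is divided by a size factor of its library. Of 31911 transcripts, 1852 had a normalized value of 200 or more in all 9 libraries, and the 200 of these with the lowest standard deviation (SD) of log2(value + 1) over the libraries are described here. Since the values themselves chose the transcripts, their low spread is a description and was not tested.

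RNA was sequenced from adult worms kept in artificial sea water with mud and fed on algae, with 1 library for each tissue. Testis, retractor muscle, blood vessel and head plus chaetae (bristles carried by annelids) were labelled male, and body wall, gut, head, ovary and tail were labelled female. The paper describes a head sample that includes the anterior-most segments. This is probably the one labelled head plus chaetae, which may therefore hold trunk tissue. Head and tail came from a pool of 5 females, the other female samples from 1 female, and the male samples from 1 male. Between these sources, tissue, worm and sex cannot be told apart. Libraries of 1 source share the worm or pool and the sex, but no value has a replicate. No worm was treated or mutant, and placing the body wall, the retractor muscle and the head plus chaetae with a worm rests on the sex in their labels. The values correspond to between 14608988 approximate reads in the blood vessel and 22177997 in the testis.

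Transcripts present at a like level in all tissues are often called housekeeping transcripts. In animals where they have been studied, many encode the machinery that every cell uses, such as protein synthesis, protein turnover, membrane traffic and energy supply, and the steadiest of them serve as reference genes when the expression of other genes is measured. Levels compared between libraries also need a common scale. The size factor used here sets that scale from the median ratio over transcripts read in every library, so "steady" means steady relative to the typical transcript, not constant in amount per cell. In bulk tissue, a lower level from fewer expressing cells and one from less RNA per cell cannot be told apart. The files name transcripts by identifier alone, and the table of 27038 reference genes used here held 0 of the 31911 identifiers. No gene names, functions, positions or sequences are therefore given, and the tissue labels were not checked against marker genes.

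The 200 steady transcripts had SDs from 0.15 to 0.40 on the log2 scale, with a median of 0.34. Over the other 1652 transcripts at 200 or more everywhere, the SDs ran from 0.40 to 2.65, with a median of 0.75. In a steady transcript the highest library was a median of 2.03 times the lowest, with extremes of 1.39 and 2.62 times. The corresponding median for the other transcripts was 4.84 times. The highest library lay within 2 times the lowest for 91 of the 200, which are also all such transcripts among the 1852 (4.91%). In all 9 libraries, 99 of the 200 stayed within 1.5-fold of their own mean, as did 3 of the other 1652 (5.51% of the 1852). Because spread defined the set, nothing is read from these shares.

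**Figure D1:**
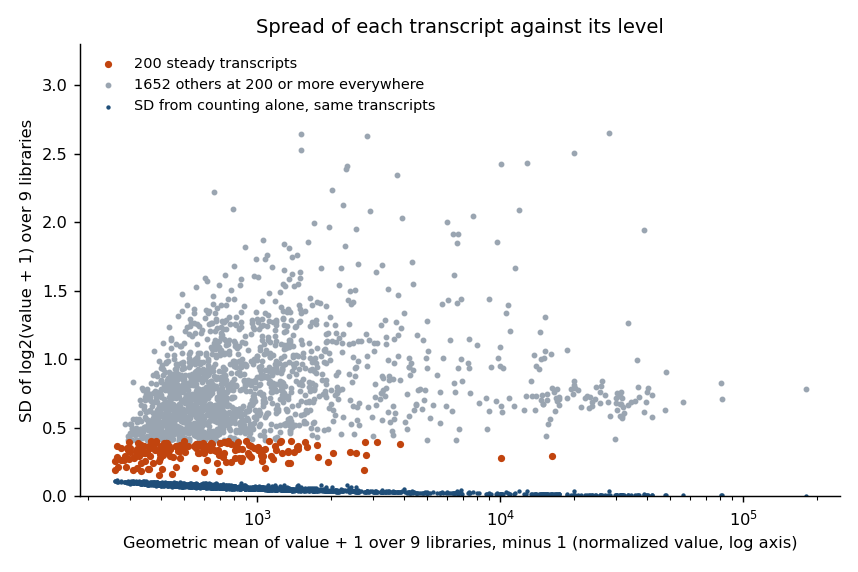
Spread of each of the 1852 transcripts with a normalized value of 200 or more in all 9 libraries (vertical axis, SD of log2(value + 1)) against its mean level (horizontal log axis), with the 200 steady transcripts in orange, the other 1652 in grey, and in blue the SD that counting of reads alone would give. The steady transcripts form the band up to an SD of 0.40, and the blue points lie below all of them.

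The steadiest transcript was OFUSG10396.1, with an SD of 0.15. Its normalized value was 365 in the blood vessel, 429 in the body wall, 386 in the gut, 415 in the head plus chaetae, 373 in the head, 455 in the ovary, 425 in the retractor muscle, 403 in the testis and 318 in the tail. The ovary was thus highest and the tail lowest, 1.43 times apart. OFUSG21803.1, with an SD of 0.16, had 471 in the blood vessel, 453 in the body wall, 502 in the gut, 463 in the head plus chaetae, 397 in the head, 530 in the ovary, 381 in the retractor muscle, 409 in the testis and 420 in the tail. Its ratio of highest to lowest library, 1.39, was the smallest of the 200. OFUSG12646.2, with an SD of 0.17, had 613 in the blood vessel, 563 in the body wall, 604 in the gut, 524 in the head plus chaetae, 717 in the head, 588 in the ovary, 613 in the retractor muscle, 514 in the testis and 727 in the tail. Here tail and head were high and testis low, while the ovary was highest in both of the preceding transcripts.

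The next 7 transcripts by SD had between 0.18 and 0.20. OFUSG06504.1 ranged from 577 in the retractor muscle to 884 in the gut, around a median of 701. OFUSG23154.1 ranged from 257 in the ovary to 405 in the gut, with a median of 329. OFUSG20574.1 ranged from 247 in the tail to 347 in the gut, with a median of 331. In each of these the gut held the highest value, while the lowest library differed. OFUSG00214.1 was also highest in the gut, at 303, and lowest in the body wall, at 213, with a median of 271. OFUSG10641.1 ranged from 285 in the body wall to 433 in the retractor muscle, with a median of 359. OFUSG26602.1 ranged from 329 in the blood vessel to 512 in the tail, with a median of 405. OFUSG05340.1 stood above the other 9, with a mean level of 2743 and values from 2088 in the head to 3307 in the ovary. With 481 approximate reads in the testis, the library in which it had fewest, it was also the best sampled of the 10.

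**Figure D2:**
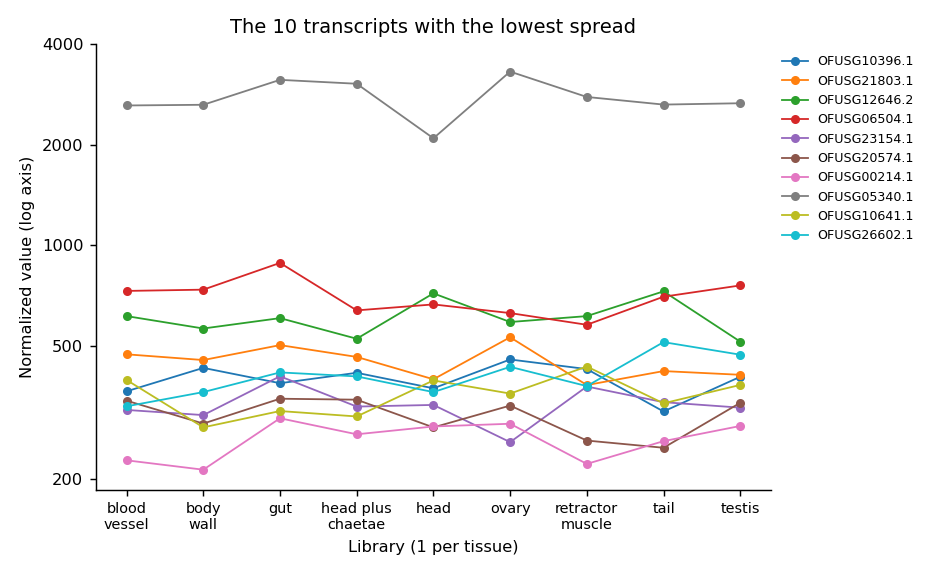
Normalized value (vertical log axis) of the 10 transcripts with the lowest spread in each of the 9 libraries, 1 library per tissue (horizontal axis), with lines joining the points of a transcript only to guide the eye. OFUSG05340.1 lies between 2088 and 3307, the other 9 lie between 213 and 884, and no library is highest or lowest for all of them.

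At the other end of the ranking, the last transcripts taken were hardly distinct from the first left out. The SD was 0.4032 at rank 200 (OFUSG09152.1) and 0.4035 at the next rank (OFUSG19362.1). OFUSG09152.1 had 712 in the ovary, while its remaining 8 values lay between 282 and 401, so a transcript with a single high library could still enter the set. Of the other members near the limit, OFUSG17171.1 had its lowest value in the retractor muscle (490) and its highest in the gut (1285). OFUSG03846.1 was lowest in the head (697) and highest in the testis (1769), and OFUSG09021.1 was lowest in the head (242) and highest in the ovary (615). OFUSG11662.1 was lowest in the retractor muscle (465) and highest in the head plus chaetae (1184). Just outside, OFUSG19362.1 ran from 509 in the head plus chaetae to 1306 in the ovary, OFUSG10080.1 from 284 in the head to 702 in the testis, and OFUSG20906.2 from 342 in the ovary to 857 in the testis. OFUSG16289.1 had 204 in the retractor muscle and 463 in the body wall, and OFUSG10497.1 had 207 in the retractor muscle and 479 in the gut. The highest library was thus between 2.27 and 2.62 times the lowest in these 10 transcripts, on either side of the limit.

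The steady transcripts were mostly of moderate level. Their mean level, the geometric mean over libraries, had a median of 551 and quartiles of 374 and 871, against a median of 736 for the other transcripts at 200 or more everywhere. Among transcripts with a mean level from 200 to 400, 62 of 213 (29.1%) were steady, but from 400 to 800 it was 77 of 826 (9.32%) and from 800 to 1600 it was 47 of 442 (10.6%). From 1600 to 3200 the set held 11 of 157 (7.01%), and above 3200 it held 3 of 214 (1.40%). A transcript with a low mean must stay near the floor of 200 in every library to be counted at all, so the first share is partly set by the floor. In their lowest library, 36 of the 200 were under 250. The lower quartile of the lowest value was 272 in the set and 253 in the other 1652, so values near the floor were not particular to the set.

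Few highly expressed transcripts were steady. OFUSG13057.2 had the highest mean level of the set, 16314, with 18917 in the blood vessel, 14781 in the body wall, 14629 in the gut, 14228 in the head plus chaetae, 11339 in the head, 15997 in the ovary, 20708 in the retractor muscle, 17262 in the testis and 21687 in the tail. OFUSG23401.1 followed with a mean level of 10040, at 15060 in the gut, between 9478 and 10754 in 6 libraries, 7950 in the head and 7783 in the head plus chaetae. For both, the head was among the 2 lowest libraries. OFUSG04372.1, with a mean level of 3866, was highest in the tail (6008) and the body wall (5809) and had between 2897 and 4179 elsewhere. OFUSG23580.1 averaged 3106 and ran from 2078 in the head to 4747 in the gut, and OFUSG16893.1 averaged 2799 and ran from 2147 in the head plus chaetae to 3642 in the body wall. The lowest mean levels were those of OFUSG12091.1 at 259, OFUSG00214.1 at 260 and OFUSG26471.1 at 264, whose values lay between 212 and 362.

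Spread between libraries was set beside the error of counting, the only error that can be estimated without replicates. A value of 200 corresponds to 36.2 reads in the testis and 72.7 in the retractor muscle, but to between 211 and 336 reads in the other 7 libraries, so the testis had the fewest reads for 198 of the 200 transcripts. The SD that counting alone would give had a median of 0.08 over the set, and the observed SD was a median of 4.54 times as large. Counting made up 5.39% of the summed variance of the steady transcripts and 0.562% of that of the others. The choice by low SD itself makes the variance of the set small, so nothing is read from this contrast. An observed SD within 2 times the counting SD was found for 6 of the 200, which are all such transcripts among the 1852 (0.324%). These were OFUSG10396.1 (1.78 times), OFUSG00214.1 (1.78 times), OFUSG21803.1 (1.87 times), OFUSG20574.1 (1.90 times), OFUSG23154.1 (1.91 times) and OFUSG25752.1 (1.97 times). That this count falls wholly in the set follows from the rule, which left the larger SDs to the others. The count depended on the libraries used. When the rule was applied without the testis, 1% of the chosen transcripts lay within 2 times their counting SD, against 3% with all libraries. Without any other single library it was 3.5% to 4.5%. The testis held 41.0% of the counting variance of the set, so leaving it out also lowers the counting SD itself. The 3 largest ratios belonged to the 3 highest levels, 22.3 times in OFUSG13057.2, 15.9 times in OFUSG23401.1 and 13.3 times in OFUSG04372.1. This order follows from the measure, since the counting SD falls as the level rises and the rule bounds the observed SD. Counting intervals take reads as independent and leave out the error of assigning reads to similar transcripts.

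The size factor and the choice by low spread hold the typical deviation of a library near 0, so the following values describe the set and test nothing. The median normalized value of the 200 transcripts lay between 494 in the body wall and 591 in the blood vessel. Relative to the mean of each transcript, the median deviation on the log2 scale was 0.07 in the testis, 0.04 in the gut, and 0.03 in the blood vessel. It was -0.00 in the tail and -0.01 in the retractor muscle, and -0.03 for ovary, -0.04 for head, -0.09 for body wall and -0.11 for head plus chaetae. Among the other 1652 transcripts these medians ran from -0.37 in the head plus chaetae to 0.27 in the ovary. The spread of single transcripts around these medians was unequal. Ovary and blood vessel made up 15.6% and 14.6% of the squared deviation of the set, the tail 7.64% and the head 8.73%, and the testis 10.7%, although 41.0% of the counting variance fell in the testis. The library farthest from the mean of the transcript was the ovary in 36 of the 200 (18%) and the blood vessel in 35 (17.5%). Among the other 1652 these shares were 24.5% and 27.4%. The testis was farthest in 23 (11.5%, beside 17.9% of the others) and the tail in 14 (7%, beside 1.57%). In 41 of the 200 the blood vessel was the highest library, beside 350 of the other 1652. The retractor muscle was the lowest in 34 of the 200, beside 110 of the other 1652.

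**Figure D3:**
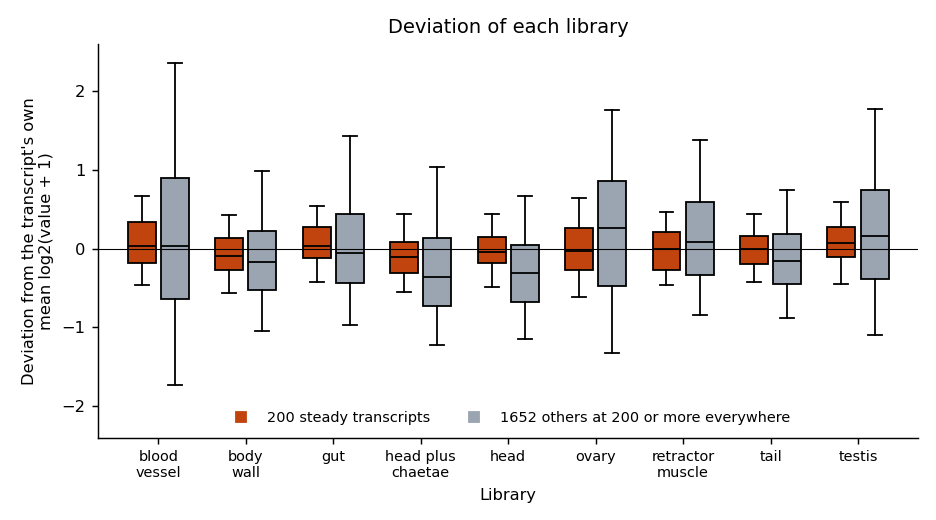
Deviation of each library from the transcript's own mean of log2(value + 1) (vertical axis) in the 9 libraries (horizontal axis), for the 200 steady transcripts (orange) and the other 1652 at 200 or more everywhere (grey). Boxes are quartiles with the median, and whiskers leave out 5% at either end. The orange medians lie between -0.11 and 0.07, and the orange boxes are widest in the blood vessel and the ovary.

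In each library, 1 steady transcript lay farthest from its own mean. The largest of these departures was OFUSG09152.1 in the ovary, at 712 against a mean level of 363, a log2 deviation of 0.97. The blood vessel had OFUSG19542.1 with a log2 deviation of -0.89 (296, mean 549), and the retractor muscle had OFUSG17171.1 with -0.88 (490, mean 900). In the body wall OFUSG10004.1 had 0.83 (1250.5, mean 703), and in the gut OFUSG23955.1 had 0.80 (462, mean 265). These departures all lie under 2-fold, a limit that each of the 200 respected in each library. Lower values were found for OFUSG08652.1 in the head plus chaetae (928, mean 1574) and OFUSG00335.1 in the head (249, mean 421). OFUSG09305.1 was higher in the testis (774, mean 464), and OFUSG04372.1 in the tail (6008, mean 3866).

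The relation between the deviations of different libraries is likewise a description, since the rule limited those deviations. Over the 200 transcripts, Pearson's r between the deviations of 2 libraries lay between -0.38 (gut and retractor muscle) and 0.11 (retractor muscle and tail) for the 36 pairs. Deviations of a transcript sum to 0 over the libraries, so unrelated libraries of equal spread would give an r of -0.125. Among the other 1652 transcripts, r ran from -0.57 to 0.43, the highest for body wall and head plus chaetae, for which the steady transcripts gave 0.03. These coefficients are across transcripts, which are not independent replicates.

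Between pairs of libraries, the fewest steady transcripts differed by over 1.5-fold for head and tail, 22 of 200 (11%), beside 27.1% of all 1852. The most did so for ovary and testis, 61 of 200 (30.5%), beside 61.6% of the 1852, followed by blood vessel and head plus chaetae with 59 (29.5%, beside 67.3%). Retractor muscle and testis, the libraries with the largest sums of values, differed by over 1.5-fold in 38 (19%, beside 45.7%). Head and tail were also the pair with the lowest share over the 1852, and since the same values chose the set, nothing is read from its lower shares.

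Male and female libraries overlapped in the steady transcripts about as often as in all transcripts at 200 or more everywhere. The mean log2 value of the 4 male libraries minus that of the 5 female libraries had a median of 0.03 over the set, with extremes of -0.53 and 0.53. The 4 male libraries all lay above the 5 female ones for 2 transcripts (0.540% of the 1852 did so) and all below for 1 transcript (0.648%). OFUSG16765.1 had between 310 and 495 in the male libraries, against 218 to 276 in the female ones. OFUSG10225.1 had between 476 and 812 in the male libraries, against 327 to 472 in the female ones. OFUSG23955.1 had between 204 and 238 in the male libraries, against 252 to 462 in the female ones. The 3 were named after their values were seen, and tissue and sex cannot be told apart in them.

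Whether a transcript that is steady in some libraries keeps its level in another was examined in libraries that the choice had not used. Each library was left out in turn, the 200 steadiest transcripts of the other 8 were chosen by the same rule, and the level in the library left out was set against their mean. The values stayed on the deposited scale, which was set from all 9 libraries, so the library was left out of the choice but not of the scale. For each of the 9 libraries, more of the chosen transcripts than of all transcripts at 200 or more in the other 8 lay within 1.5-fold of that mean. Averaged over the libraries, the share was 73.6% of the chosen transcripts, against 54.3% of all. In the tail 180 of 200 (90%) lay within 1.5-fold, against 72.3% of all 1880 transcripts, and in the body wall 166 (83.0%), against 64.4%. In the head it was 164 (82.0%), against 59.4%, and in the gut also 164 (82.0%), against 59.5%. Tail, body wall, head and gut were thus the libraries with the largest shares. The retractor muscle had 155 (77.5%), against 57.4%, and the head plus chaetae 153 (76.5%), against 50%. In the testis 129 (64.5%) lay within 1.5-fold, against 49.6%. The lowest shares were 110 (55.0%) in the ovary, against 39.9%, and 103 (51.5%) in the blood vessel, against 36.5%. With 1 library per tissue these shares have no replicate, and no p-value is given. Each library left out also shared its worm or pool with at least 1 of the other 8. Head and tail are body regions rather than single tissues, so the shares are not those of separate worms or tissues. They also depend on the scale: with each library scaled to the same sum, 7% of the chosen transcripts lay within 1.5-fold in the testis, 13.5% in the retractor muscle and 25% in the ovary, and the share over the 9 libraries was 43.3%, against 37.9% of all transcripts. With sums taken without the transcripts above 1% of any library, it was 24% in the testis, 27% in the ovary and 50% in the retractor muscle, and 58.4% over the 9 libraries, against 50.6% of all transcripts.

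**Figure D4:**
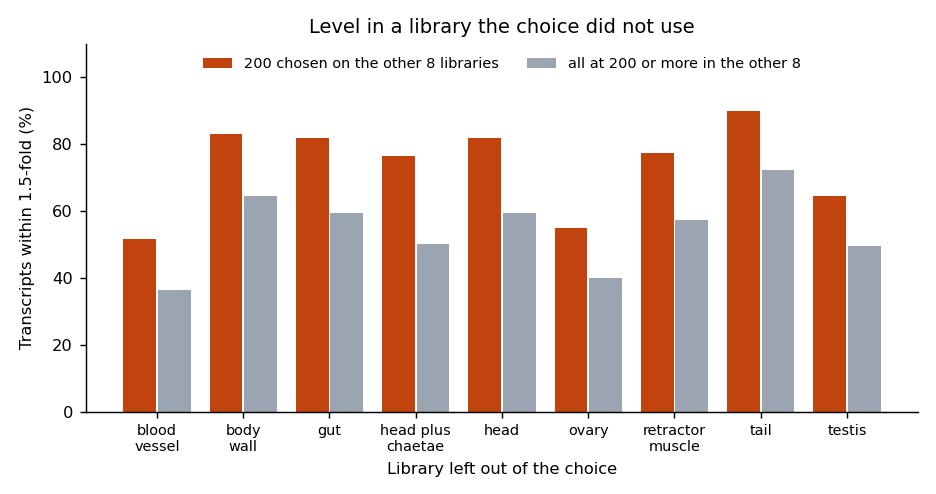
Share of transcripts (vertical axis, percent) whose level in a library left out of the choice (horizontal axis) was within 1.5-fold of their mean in the other 8, for the 200 steadiest of those 8 (orange) and for all transcripts at 200 or more in those 8 (grey). The orange bars run from 51.5% in the blood vessel to 90% in the tail, each above the grey bar beside it.

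Some transcripts chosen on 8 libraries were far off in the ninth. In the testis, OFUSG25196.1 had 22.1 against a mean level of 450 in the other 8 libraries, a log2 difference of -4.29 that rests on few reads. OFUSG17620.1 had 81.3 in the blood vessel, against a mean level of 1089 elsewhere (log2 difference -3.73), and OFUSG01270.2 had 39.6 in the ovary, against 283 (-2.80). These transcripts were low in a single tissue, and others were high in one. OFUSG02431.1 had 3892 in the retractor muscle, against 678 (log2 difference 2.52), and OFUSG05341.1 had 1736 in the gut, against 318 (2.44). Differences beyond 2-fold were most frequent in the blood vessel, with 31 of 200 chosen transcripts above and 25 below. The ovary had 31 above and 9 below, the testis 21 above and 9 below, and the tail 1 above and 0 below. Shares beyond 2-fold over all transcripts at 200 or more in the other 8 are not given for each library. These counts are therefore not read as a trait of the chosen transcripts. By the median absolute log2 difference over all those transcripts, the libraries had the same order. It was 0.87 in the blood vessel, 0.76 in the ovary, 0.59 in the testis and 0.36 in the tail. Averaged over the 9 libraries, 90.9% of the chosen transcripts lay within 2-fold, against 77.5% of all. The 5 transcripts named here, each the farthest of its library, were picked for their values.

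Membership depended more on some libraries than on others. With the blood vessel left out, 131 of the 200 steady transcripts were chosen again, with the ovary left out 139 and with the testis left out 149. Without the tail it was 184, the most of any library. Without both testis and retractor muscle, a setting added after the data were seen, 121 were chosen again. Over all 23 changes of setting, a steady transcript was chosen again under a median of 18. Taking the 100 or the 400 lowest is among these settings, and its outcome follows from the rank alone. The 5 chosen again most often, under 22 each, were OFUSG08032.1, OFUSG19097.1, OFUSG23359.1, OFUSG09815.1 and OFUSG01059.1. OFUSG08032.1 ranged from 995 in the ovary to 1727 in the retractor muscle, and OFUSG19097.1 from 570 in the body wall to 1031 in the ovary. OFUSG23359.1 ranged from 764 in the body wall to 1263 in the blood vessel, and OFUSG01059.1 from 511 in the ovary to 1000.5 in the testis. None of these 4 was among the 10 steadiest. Being chosen again this often required a value of 500 or more in every library, as a floor of 500 was among the settings.

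Whether the set was steady depended on the scale. The sum of all values was 122592193 in the testis and 56451691 in the retractor muscle, but between 9938696 and 13848990 in the other 7 libraries. When each library was scaled to 1000000, the median level of the 200 transcripts was 4.42 in the testis and 9.34 in the retractor muscle, against 42.7 in the blood vessel to 54.5 in the head over the other 7. On that scale the testis was the lowest library for 199 of the 200, with a median deviation from the mean of the transcript of -2.71 (log2), and their SDs lay between 1.02 and 1.58. None of the 200 was among the 200 steadiest there, and 61 reached the corresponding floor in every library. How often the testis was lowest on that scale is not given for the other transcripts at 200 or more everywhere. The count of 199 is therefore not read as a trait of the set. On that scale, the 108 transcripts with a mean level of at least 10000 and 200 or more everywhere had a median testis deviation of -1.93. The steady transcripts together held 0.148% of the sum in the testis and 0.313% in the retractor muscle, but 1.3% to 1.62% elsewhere. When the 30 transcripts above 1% of any library were left out of the sums, 39 of the 200 were chosen again. With upper-quartile scaling, which like the size factor rests on the bulk of transcripts, it was 168. Which scale is closer to RNA per cell was not tested.

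**Figure D5:**
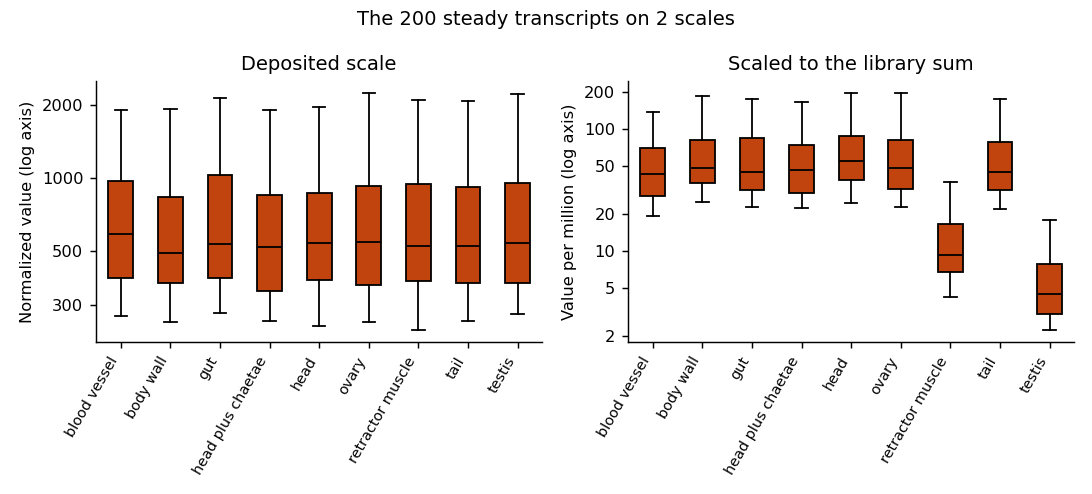
Levels of the 200 steady transcripts in the 9 libraries (horizontal axis) as deposited (left panel, normalized value, log axis) and scaled to 1000000 per library (right panel, log axis). Boxes are quartiles with the median, and whiskers leave out 5% at either end. The medians lie between 494 and 591 on the left, while on the right the testis (4.42) and the retractor muscle (9.34) lie below the other 7 libraries.

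The transcript models of the genes were not used by the rule. The 200 steady transcripts belonged to 199 genes, of the 26974 genes in the matrix, and 25 of the 200 (12.5%) came from a gene with a further transcript. This was so for 250 (15.1%) of the other 1652 transcripts at 200 or more everywhere and for 8593 (26.9%) of all 31911. In these 25, the steady transcript took a median of 90.4% of the summed value of its gene, beside 82.8% for the 250 others. Averaged over libraries, its share was over 50% in 24 of the 25, beside 214 of the 250. In 16 of the 25 it took more than 50% in each library. The most abundant further transcript of the gene had 0 reads in at least 1 library in 17 of the 25, and in 3 of these in all 9. Counts of these kinds in each library are not given for the 250 others, so nothing particular to the set is read from them. Reads of transcripts of 1 gene are divided by estimation, so these values carry an error beyond counting that was not measured.

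In some genes a steady transcript stood beside one that differed widely between tissues. OFUSG16893.1, the steady transcript, had 2257 in the blood vessel, 3642 in the body wall, 3040 in the gut, 2147 in the head plus chaetae, 2207 in the head, 3589 in the ovary, 3216 in the retractor muscle, 2515 in the testis and 3070 in the tail. OFUSG16893.2 of the same gene had 4123 in the testis and 1134 in the retractor muscle, 361 in the head plus chaetae, between 21.8 and 73.5 in 4 libraries, and 0 in the blood vessel and the tail. The share of the steady transcript in its gene was therefore 37.9% in the testis and 100% in the tail. OFUSG13057.2, the most abundant steady transcript, stood beside OFUSG13057.1, which had 25414 in the gut and between 204 and 1431 in the other 8 libraries. OFUSG10158.1 ranged from 616 in the blood vessel to 1306 in the gut, beside OFUSG10158.2 with 973 in the blood vessel and at most 167 elsewhere. In OFUSG10158 the sum of the transcripts had an SD of 0.21, lower than the 0.33 of the steady transcript, while in OFUSG16893 and OFUSG13057 it had 0.50 and 0.52. Of the 25 steady transcripts, 2 of which share a gene, 13 were less steady than the sum of their gene, and for 21 that sum had an SD of at most 0.40. With the transcripts of every gene summed before the choice, 170 of the 200 were found again through their gene.

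A single gene, OFUSG09815, gave 2 steady transcripts. OFUSG09815.1 had 973 in the blood vessel, 1148 in the body wall, 1126 in the gut, 1201 in the head plus chaetae, 761 in the head, 984 in the ovary, 866 in the retractor muscle, 1509 in the testis and 1016 in the tail. OFUSG09815.2 had 2384 in the blood vessel, 2113 in the body wall, 3447 in the gut, 2907 in the head plus chaetae, 1954 in the head, 1928 in the ovary, 2647 in the retractor muscle, 2537 in the testis and 3444 in the tail. The longer or shorter of them is not known here, so their levels are not compared with each other. Their SDs were 0.29 and 0.32, and that of their sum was 0.27. OFUSG12646.2, also among the 10 steadiest, was steadier than its gene, as OFUSG12646.1 had 732 in the blood vessel, 606 in the retractor muscle, 91.0 in the body wall and 99.8 in the ovary. The SD was 0.17 for OFUSG12646.2 and 0.38 for the sum.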

How the data were processed

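The authors removed adapters from the reads, quantified transcripts by pseudo-alignment in kallisto and scaled the counts of the 9 libraries in DESeq2. The submitters' processing notes name kallisto 0.44.0, DESeq2 1.34.0 and R 4.1.2. The unit of the deposited matrix is a normalized signal, here read as counts over a size factor for each library. The median ratio of value to geometric mean, over transcripts above 0 everywhere, was 0.967 in each library. The value of 1 read was the least-squares step of values of up to 20 reads. Of these, 93.2% in the retractor muscle and at least 96.1% elsewhere lay within 0.1 read of a whole number, so read numbers are approximate and no count model was used. A further factor specific to each transcript was not tested.

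The members and the questions asked were chosen with earlier results of these data known. The counting SD is the root of the mean variance of log2 values under Poisson sampling. Ties were ordered by identifier. Transcripts named are the 10 lowest SDs, ranks 196 to 205, the 5 highest and 3 lowest levels, the 3 largest and 6 smallest ratios to the counting SD, the gene with 2 members, the 5 most often chosen again and the farthest in each library. Others were named after their values were seen. No test between tissues was made, as each has 1 library. The choice, the step and the counting SD were run on simulated data, in which the planted steady transcripts had no spread beyond counting. In the set itself the observed SD was at least 1.78 times the counting SD. The simulation therefore checked the computation and not the choice made in these data. Computations used Python 3.11.15, numpy 2.4.6, pandas 2.3.3 and matplotlib 3.10.9.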

Additional observations from a re-analysis of the deposited data

How the results depend on the processing

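With a floor of 100, 3674 transcripts passed in every library and 140 of the 200 were chosen again, and with a floor of 500 these numbers were 587 and 74. A value within 2 times the counting SD was found for 5.5% of the transcripts chosen with the lower floor and 0% of those with the higher one, against 3% with the floor of 200. Scaled to 1000000 per library, 998 passed, 0 were chosen again, 0% lay within 2 times the counting SD, and 43.3% of held-out values were within 1.5-fold (37.9% over all transcripts). With sums taken without transcripts above 1% of a library, 39 were chosen again, and 0% were within 2 times the counting SD. The median absolute deviation in place of the SD kept 88. Taking the 100 lowest kept those 100, of which 6% were within 2 times the counting SD, and taking the 400 lowest gave 1.5%. With a limit of 0.32 on the log2 scale in place of 0.58, 47.3% of held-out values were within it (32.7% over all transcripts). With each library left out in turn, between 1877 and 2083 transcripts passed, between 131 and 184 of the 200 were chosen again, and 1% to 4.5% were within 2 times the counting SD. Without testis and retractor muscle, a setting added later, 121 were chosen again and 1.5% were within that limit. Pseudocounts of 0 and 10, the range, and the SD less its counting part kept between 173 and 199 of the 200. No paired analysis was possible because each tissue has 1 library.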

Other observations

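The most abundant transcripts found everywhere were seldom steady. Of 108 transcripts with a mean level of at least 10000 and a value of 200 or more in every library, a limit chosen after the values were seen, 2 were among the steady ones. The SDs of the 108 had quartiles of 0.67 and 0.83 around a median of 0.73, against a median counting SD of 0.01. Relative to their own means they had median log2 deviations of 0.85 in the testis, 0.76 in the retractor muscle and 0.66 in the ovary, and of -0.98 in the body wall and -0.56 in the head plus chaetae. The testis was the highest library for 45 of the 108, beside 24 of the 200 steady transcripts and 315 of the other 1652. Body wall was the lowest for 67 of the 108, beside 28 of the 200 and 197 of the other 1652. Steady transcripts, by comparison, had median deviations between -0.11 and 0.07. With each library scaled to a sum of 1000000, the medians turned negative in the testis (-1.93) and the retractor muscle (-0.91) and positive in the head plus chaetae (0.08), blood vessel (0.02), gut (0.50), head (0.78) and tail (0.35). The ovary stayed above (1.31) and the body wall below (-0.18).

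Steadiness was not limited to transcripts above the floor. Of 14393 transcripts above 0 in all 9 libraries, 418 had an SD no higher than that at rank 200, and 218 of these were not in the set because a library lay under 200. In 103 of the 218 the lowest value was at least 100.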
